A study of Mus musculus with 13 samples.

Results

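The 10 genes described here are imprinted genes of the mouse: Kcnq1ot1, H19, Igf2, Meg3, Peg3, Dlk1, Cdkn1c, Snrpn, Ndn and Mest. They were taken by symbol from a deposited table of 30479 genes, and all 10 had a row in each of the 13 libraries. The libraries came from mice at postnatal day 25 that the labels call WT (wild type), Het (heterozygous) or KO (knockout) for Wfdc15a, and the study asked what Wfdc15a does in spermatogenesis. Whole testis without its capsule gave 6 libraries (2 WT, 1 Het, 3 KO), each from about 2 ng of RNA, and round spermatids sorted by their DNA dye signal gave 7 libraries (2 WT, 2 Het, 3 KO), each from 100 to 200 cells. All were made with the Smart-seq2 protocol, which copies whole messenger RNAs and does not mark the strand. The design of the Wfdc15a allele and any other allele or treatment are not described in the labels, which also do not say whether a group's libraries stem from different mice. The p-values below therefore measure the spread between these libraries, which may be technical.

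An imprinted gene is read mostly from the copy inherited from one parent, because DNA methylation laid down in the egg or in the male germ line marks a control region on only one of the copies, in many cases the silent one. In testis the marks of the male germ line are set before meiosis, while the somatic cells around the germ cells keep the pattern of both parents. Several of these genes are known for roles in fetal and placental growth, and Smart-seq2 read totals do not separate the maternal from the paternal copy. Nothing here bears on which parental copy was read.

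The levels below are RPM, read counts scaled to the same total in every library, and 1 read was worth 0.0478 to 0.136 RPM. Testis libraries held 7375270 to 18438704 reads and spermatid libraries 10825690 to 20927428, and 3 reads, the limit that a count of 0 allows, corresponded to 0.143 to 0.407 RPM. The libraries fell into sets along the leading principal component in each cell type, with 71.6% of the testis variance and 55.6% of the spermatid variance. Set 1 held the WT libraries and both libraries of KO replicate 1, and set 2 held the Het libraries and those of KO replicates 2 and 3. The labels name no batch, so genotype and set can be separated only through KO replicate 1. In testis that library had the fewest reads (7375270) and the fewest genes with reads (15435, against 20115 to 22587 in the other testes). The sets differed in markers of other cells. Summed RPM of 8 Sertoli cell markers was 16.8 to 27.9 in the set 1 testes against 1339 to 1443 in set 2, with Amh at 0 in all 3 testes of set 1. Summed RPM of 7 stromal markers (Dcn, Col1a1 and others) was 2.1 to 5.14 in set 1 spermatids against 478 to 1065 in set 2. Within the set 1 testes it was 13.8 and 12.7 in WT but 209 in KO replicate 1. The set 1 testes therefore did not show the Sertoli markers at the level of the other libraries with that label, and the set 2 spermatids carried stromal markers. The 8 round spermatid markers were detected in every library, but they did not move as one. Spaca1, Acrv1, Izumo1 and Catsper3 were higher in WT spermatids than in WT testis (limma, adjusted p of at most 0.00898), and Spaca1 was at 357 to 458 RPM in spermatids against 36.4 to 184 in testis. The other 4, the late genes Tnp1, Tnp2, Prm1 and Prm2 for the packing of sperm DNA, were higher in both WT testes than in any spermatid library, with Prm1 at 1106 and 546 RPM in WT testis against 13.1 to 152 in spermatids. The summed RPM of the 8 was 3936 and 1807 in WT testis, 509 in Het testis and 424 to 1191 in KO testis, and in spermatids 1602 and 1515 in WT, 1106 and 1204 in Het and 852 to 1363 in KO. Wfdc15a itself was at 207 and 212 RPM in WT testis, 48.4 in Het and 36.8 to 116 in KO; in spermatids it was at 234 and 267 in WT, 65.0 and 71.5 in Het and 48.1 to 97.9 in KO. Its RNA was lower in the KO libraries than in WT but not at 0, and the Het and KO ranges overlapped. In whole testis, fewer cells of a type and less RNA per cell cannot be told apart.

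The starts of 4 of the genes are shown because the results turn on them: Kcnq1ot1, the member whose level differed most between groups, and Peg3, Ndn and Mest, which were each higher in set 2 than in set 1. Each sequence covers 250 bases before to 50 bases after a RefSeq start in build GRCm38.p6, written along the gene's strand, with CpG dinucleotides, the sites of DNA methylation, in capitals. RefSeq promoters were found for 8 of the 10 members, and H19 and Cdkn1c are named only.
Kcnq1ot1 (chr7:143296498-143296797, minus strand): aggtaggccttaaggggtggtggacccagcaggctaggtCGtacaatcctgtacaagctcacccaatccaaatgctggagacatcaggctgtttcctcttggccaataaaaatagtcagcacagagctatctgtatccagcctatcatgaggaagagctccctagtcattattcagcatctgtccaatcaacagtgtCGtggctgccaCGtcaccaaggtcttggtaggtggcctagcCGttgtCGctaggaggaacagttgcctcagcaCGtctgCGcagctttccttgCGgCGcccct
Peg3 (chr7:6730370-6730669, minus strand): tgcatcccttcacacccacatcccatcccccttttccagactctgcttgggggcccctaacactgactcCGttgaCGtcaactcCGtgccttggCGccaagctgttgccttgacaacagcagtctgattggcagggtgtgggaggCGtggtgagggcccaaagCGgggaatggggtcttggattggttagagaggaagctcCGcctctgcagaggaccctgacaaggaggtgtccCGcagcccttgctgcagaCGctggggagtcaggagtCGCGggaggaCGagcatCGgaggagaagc
Ndn (chr7:62348027-62348326, plus strand): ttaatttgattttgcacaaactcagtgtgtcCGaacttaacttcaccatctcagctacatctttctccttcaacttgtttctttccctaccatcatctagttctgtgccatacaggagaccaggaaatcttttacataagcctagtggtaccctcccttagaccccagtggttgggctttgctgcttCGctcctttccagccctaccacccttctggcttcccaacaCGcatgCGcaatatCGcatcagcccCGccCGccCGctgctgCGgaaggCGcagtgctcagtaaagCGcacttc
Mest (chr6:30737800-30738099, plus strand): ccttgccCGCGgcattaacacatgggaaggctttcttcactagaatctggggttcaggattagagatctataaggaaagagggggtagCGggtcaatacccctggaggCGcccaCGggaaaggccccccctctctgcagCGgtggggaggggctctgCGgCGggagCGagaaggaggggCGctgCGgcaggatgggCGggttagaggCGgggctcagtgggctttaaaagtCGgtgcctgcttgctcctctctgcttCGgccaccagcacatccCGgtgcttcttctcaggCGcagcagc
These windows held 9, 13, 11 and 17 CpG, against a median of 7 over 32851 promoters of the same length. The 6 letters TGCCGC, the core recognised by the imprint-protecting protein ZFP57, were searched on both strands (as TGCCGC or GCGGCA), and 11.6% of those promoters held them. The Mest window shown had 2 matches, and the other 3 windows had none. Mest has further RefSeq starts. The window at chr6:30733256-30733555 held 8 CpG and 0 matches, and that at chr6:30737803-30738102, which overlaps the one shown, held 17 CpG and 2 matches. Of the other members, 1 window each of Snrpn, Igf2 and Meg3 held 1 match. A match describes letters in a window and is not evidence of binding.

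Kcnq1ot1 is a long RNA that is not spliced and not translated. It starts inside an intron of the potassium channel gene Kcnq1, runs against it, and on the paternal chromosome is known to keep neighbouring genes silent, Cdkn1c among them. Its GENCODE M21 model is a single exon of 93092 bases (chr7:143203458-143296549, minus strand, build mm10, equal to GRCm38). In WT testis it was at 0.380 and 0.0634 RPM, which is 7 reads and 1 read. The Het testis held 29.3 RPM, and the 3 KO testes held 32.8, 27.9 and 21.5 RPM. Every Het and KO testis was thus far above both WT testes. The highest was KO replicate 1, which shares a library set with the WT libraries but had the fewest reads. Of the 8 members tested in testis, 5 were higher in every Het and KO library than in both WT libraries, as were 27.5% of genes: Kcnq1ot1, Igf2, Snrpn, Ndn and Mest. The KO mean of Kcnq1ot1 was 27.4 ± 5.69 RPM (SD, n = 3) and the WT mean 0.221 ± 0.224 RPM (SD, n = 2).

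In round spermatids the order of Kcnq1ot1 was different. The WT libraries held 8.0 and 8.68 RPM and the Het libraries 11.1 and 9.51 RPM. The KO libraries held 2.72, 3.57 and 3.48 RPM, all below every WT and Het library. The means were 8.34 ± 0.480 in WT (SD, n = 2), 10.3 ± 1.09 in Het (SD, n = 2) and 3.26 ± 0.466 in KO (SD, n = 3). The WT mean was thus 2.56 times the KO mean, and the ranges of KO and of the other spermatids did not overlap in either library set. Across groups the mean RPM ran from Het and KO testis, which did not differ beyond the KO spread, through Het and WT spermatids and KO spermatids down to WT testis.

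**Figure D1:**
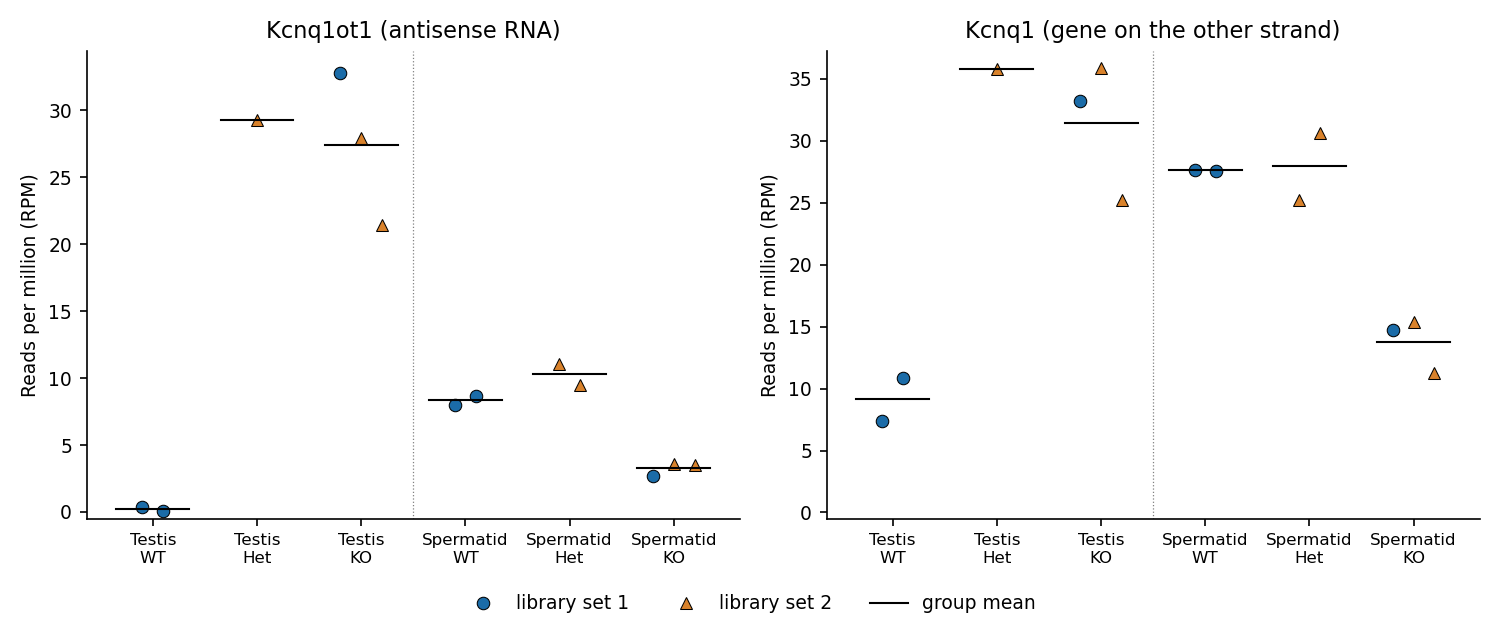
Levels of Kcnq1ot1 (left) and of Kcnq1, the gene it lies within (right), in RPM on a linear axis, for each of the 13 libraries by cell type and genotype; circles and triangles are library sets 1 and 2, and bars are group means. Kcnq1ot1 was at 0.0634 and 0.380 RPM in WT testis against 21.5 to 32.8 in KO testis, and at 8.0 and 8.68 RPM in WT spermatids against 2.72 to 3.57 in KO spermatids.

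Differences were tested with limma on log2(RPM + 1), as a two-sided test over every gene that reached 1 RPM in 2 or more of the fitted libraries. Adjusted p-values (Benjamini-Hochberg) under 0.05 count as passing. On this scale the change of low genes is understated. For KO against WT testis no gene passed (0 of 18570, 0.0%), while 4380 genes (23.6%) had an unadjusted p under 0.05, and voom on recovered reads called 0 as well. Kcnq1ot1 differed by 4.53 (SE 0.66, adjusted p = 0.0710), and 3 of the 8 members tested were under 0.05 before adjustment. The adjusted p of Kcnq1ot1 ranged from 3.6e-08 to 0.547 over the alternatives: it was 0.00057 when all 13 libraries were fitted together (20.7% of genes passed), 0.00013 when KO replicate 1 was dropped (65.2% passed), and 0.547 and 0.447 without WT replicate 1 or 2. The difference itself stayed between 4.34 and 4.72 whichever library was left out. For KO against WT spermatids no gene passed either (0 of 18075, 0.0%; 3813 genes or 21.1% before adjustment; 0 by voom), and Kcnq1ot1 differed by -1.14 (SE 0.38, adjusted p = 0.154). Of the 18075 genes, 4.9% were lower in every KO spermatid library than in every WT and Het library, and 2 of the 7 members tested were, Kcnq1ot1 and Snrpn. For Het against WT spermatids, 0 of 18075 genes passed (0.0%; 4542 or 25.1% before adjustment; 0 by voom), and Kcnq1ot1 differed by 0.27 (SE 0.41, adjusted p = 0.711).

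Between cell types Kcnq1ot1 passed the test in both genotypes, in opposite directions. In WT it was higher in spermatids than in testis by 2.95 (SE 0.49, adjusted p = 0.00329), in a comparison where 11.5% of 20085 genes passed. In KO it was lower in spermatids than in testis (-2.72, SE 0.40, adjusted p = 0.0156), where 2.36% of 20085 genes passed. It was the only one of the 10 members tested that passed in either comparison. The WT call held under every alternative, with adjusted p of at most 0.0414. The KO call was lost when KO testis replicate 2 or 3, or any 1 of the 3 KO spermatid libraries, was left out (adjusted p 0.0501 to 0.0666). Without both libraries of KO replicate 1, an alternative added after seeing the data, the KO difference was -2.49 (adjusted p = 0.00034), and 36.9% of genes passed.

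The difference between the KO effects of the 2 cell types was tested as an interaction. For Kcnq1ot1 the KO-minus-WT difference in spermatids minus that in testis was -5.67 (SE 0.63, adjusted p = 0.0168). This was the lowest of the 20085 interaction values in this fit and had the smallest p, and 2.13% of genes passed. The median of all genes was -0.48, and that of the 1460 genes with at least 10000 exonic bases was -1.20. The adjusted p was 0.0712 without WT testis replicate 1, 0.112 and 0.130 without WT spermatid replicate 1 or 2, 0.0590 with quantile-normalized libraries and 0.115 with centred libraries, and the value stayed between -5.86 and -5.44 in all fits that left libraries out. Without both libraries of KO replicate 1 it was -5.44 (adjusted p = 1.8e-05), and 32.8% of genes passed.

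Several measures moved with these values, and their part in them was not tested. In testis the library sets can be compared through KO replicate 1: within set 1 it exceeded the mean of the WT testes by 4.80, and within set 2 the KO testes differed from the Het testis by -0.25. The WT testes thus stood apart within their own set, and the Het testis lay within the KO range. In spermatids the KO libraries were lower in both sets, with a difference of -1.33 from WT in set 1 and of -1.31 from Het in set 2. Long genes were higher in KO than in WT testis: the median difference was 1.40 over 1427 genes of at least 10000 exonic bases, against 0.63 over all genes, and Kcnq1ot1 ranked 4 among those long genes. In spermatids the median of 1432 long genes was 0.09, and all genes stood at 0.03. Summed RPM of 7 spermatocyte markers was 381 and 578 in WT testis against 918 to 2171 in the other testes. The 918 was that of KO replicate 1, where the markers were split. Sycp1 (222), Sycp2 (303) and Meiob (26.6) were above both WT testes there. Sycp3 and Hormad1 lay within the WT range, and Dmc1 (0) and Spo11 (21.8) below it. In spermatids the spermatocyte marker sum was 518 to 1030 in KO, 490 and 568 in WT and 941 and 1052 in Het, and the KO range overlapped both. The round spermatid marker sums given above also differed between these groups. Both WT testes, where Kcnq1ot1 was lowest, were above every other testis, and every KO spermatid library was below both WT libraries. The markers were split. Tnp1, Tnp2, Prm1 and Prm2 had the order of the sum in testis, but Spaca1, Acrv1, Izumo1 and Catsper3 were lower in both WT testes than in every other testis. That second order held for 27.5% of genes. In spermatids the 4 late genes and Spaca1 were lower in every KO than in both WT libraries. Izumo1 was higher in every KO library, and Acrv1 and Catsper3 overlapped.

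Kcnq1 encodes a voltage-gated potassium channel and is read from the other strand across Kcnq1ot1. The annotated exons of the pair share only 121 bases (0.13% of the exonic length of Kcnq1ot1), but unspliced Kcnq1 RNA crosses the Kcnq1ot1 model, and without strand its reads cannot be told apart from those of the antisense RNA. Kcnq1 was at 7.38 and 10.9 RPM in WT testis, 35.8 in Het testis and 33.2, 35.9 and 25.3 in KO testis. Spermatids held 27.7 and 27.6 in WT, 25.2 and 30.7 in Het and 14.8, 15.3 and 11.3 in KO. The order of its groups was like that of Kcnq1ot1, with WT testis low among the testes and KO spermatids low among the spermatids. Kcnq1 passed in WT spermatids against WT testis (1.52, SE 0.39, limma adjusted p = 0.0286) and in the interaction (-2.65, SE 0.50, limma adjusted p = 0.0296). Its other differences did not pass, and with centred libraries no gene, Kcnq1 included, passed in the interaction. Of the other listed neighbours in the cluster, Nap1l4, a histone chaperone gene, was at 45.2 and 47.5 RPM in WT spermatids and at 96.5 to 149 in the others, and Cd81, a membrane protein gene, was at 5.04 to 9.22 RPM in set 1 testes and 144 to 159 in set 2. Neither passed in any comparison, and Phlda2 and Ascl2 stayed at or below 0.542 RPM in every library.

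Likeness to Kcnq1ot1 was measured as the root-mean-square difference of log2(RPM + 1) over the 13 libraries after centring each gene, among 15327 named genes. The closest were Sycp1 (0.605), which builds the synaptonemal complex of meiotic chromosomes, Kdm1b (0.605), a histone demethylase needed for imprints in the egg, and Rnmt (0.627), which caps messenger RNA. Sycp1 was at 14.9 and 20.0 RPM in WT testis and 221 to 299 in the other testes. In spermatids it was at 102 and 83.0 in WT, 109 and 122 in Het and 41.1, 155 and 76.9 in KO. Unlike that of Kcnq1ot1, the KO range of Sycp1 in spermatids thus spanned the WT and Het values. Kdm1b was at 0.380 and 1.90 RPM in WT testis, 13.4 to 17.8 in the other testes, 6.28 to 8.94 in WT and Het spermatids and 2.46 to 6.60 in KO spermatids. Kdm1b passed in the interaction (-3.97, SE 0.77, limma adjusted p = 0.0317), and so did Sycp1 (-4.09, SE 0.62, adjusted p = 0.0174), where 2.13% of genes passed. Both were picked for their likeness to Kcnq1ot1 in these same libraries, so their passing is not an independent result. With centred libraries neither passed in the interaction, nor did any other gene. Kcnq1 ranked 407, and the closest other member was Snrpn at rank 2881.

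Cdkn1c encodes p57, an inhibitor of cyclin-dependent kinases that slows growth and is read from the maternal copy. Its gene lies at chr7:143458339-143461050 (minus strand). In WT testis it was at 8.08 and 3.04 RPM, in Het testis at 0.672, and in KO testis at 0, 1.18 and 0.633. It was the 1 member of 8 with every WT testis above every Het and KO testis, and 12.7% of 18570 genes had that order. In spermatids the groups overlapped: 3.68 and 0.589 RPM in WT, 0.533 and 1.57 in Het and 0.956, 2.28 and 0.639 in KO. The KO-minus-WT difference in testis was -1.99 (SE 0.65, adjusted p = 0.141), and it passed only under other settings (adjusted p = 0.0411 when all 13 libraries were fitted together). Its direction was against that of Kcnq1ot1 in testis, but in spermatids, where Kcnq1ot1 was lower in KO, Cdkn1c differed by only -0.32 (SE 0.57, adjusted p = 0.772). The antisense gene Gm44732 overlaps 30.7% of its exonic bases and never exceeded 0.703 RPM. Of 15 listed cyclins, kinases and kinase inhibitors, none passed for KO against WT in either cell type, where 0.0% of all genes did. In WT spermatids against testis 2 of the 15 were higher, against 9.09% of all genes. These were Ccna1, the cyclin of male meiosis, by 1.51 (SE 0.43, adjusted p = 0.0441) and Ccnd3, a cyclin of the entry into the cell cycle, by 2.25 (SE 0.34, adjusted p = 0.00214). Ccna1 was also higher in KO spermatids than in KO testis, by 1.83 (SE 0.35, adjusted p = 0.0287).

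Igf2 (chr7:142650766-142666816, minus strand) encodes a fetal growth factor read from the paternal copy. Its values carry a doubt about their source: 62.8% of its exonic bases also belong to the readthrough gene Gm49394, and the recovered reads of the pair were equal in 12 of the 13 libraries, with 405 reads in all for Igf2 and 406 for the other. Igf2 was at 0 and 2.09 RPM in WT testis, 2.30 in Het and 4.75, 5.73 and 5.38 in KO. Spermatids held 0.117 and 0.785 in WT, 3.26 and 0 in Het and 0, 2.69 and 2.98 in KO. KO testes were above both WT testes, while Het and KO spermatids each ran from 0 to about the highest value of the cell type. The KO-minus-WT difference was 1.83 in testis (SE 0.75, adjusted p = 0.207) and 0.80 in spermatids (SE 0.75, adjusted p = 0.554). Of 15 listed genes of the pathway, including its receptors and binding proteins, 13 were tested in each KO comparison. None of the 13 passed, but neither did any other gene (0.0% of all genes). Their median difference in testis was 1.77, against 0.63 over all genes, and 1.59 over the 8 members. Igfbp7, which binds the factor outside the cell, differed by 3.15 in testis (SE 0.66, adjusted p = 0.0732), and Igf1r, the receptor through which it acts, by 0.95 (SE 0.77, adjusted p = 0.462). The most abundant of the list, the RNA-binding protein gene Igf2bp3, differed by 0.81 (SE 0.36, adjusted p = 0.238). In WT spermatids against WT testis 1 of 14 passed, against 9.09% of all genes higher: Insr, the insulin receptor gene, at 16.0 and 9.61 RPM against 1.08 and 1.65 (2.52, SE 0.55, adjusted p = 0.0132).

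Dlk1 (chr12:109452823-109463336, plus strand) encodes a membrane ligand related to those of Notch. Meg3 (chr12:109541001-109571726, plus strand) is the noncoding RNA read from the maternal copy of the same cluster. H19 (chr7:142575529-142578143, minus strand) is the noncoding RNA read from the maternal copy beside Igf2. Dlk1 exceeded 3 reads in 7 of the 13 libraries, and H19 and Meg3 in 5 each, fewer than the 8 required, so no difference is given for them. Dlk1 was at 0.271 and 0.887 RPM in WT testis, 0.864 in Het and 0, 0 and 3.04 in KO, and in spermatids at 0.701 and 0 in WT, 0.2 and 0 in Het and 0.143, 0.527 and 1.99 in KO. H19 was at 0.108 and 0 RPM in WT testis, 0.960 in Het and 0, 0.471 and 2.09 in KO, and in spermatids at 0 and 0 in WT, 0.533 and 0.277 in Het and 0, 0 and 1.42 in KO. For both genes the highest value in each cell type was in KO replicate 3. Meg3 was at 0 and 0.317 RPM in WT testis, 0.288 in Het and 9.76, 1.57 and 0.190 in KO, and in spermatids at 0 in every WT and Het library and 0, 0.469 and 0.284 in KO. Its 9.76 RPM (72 reads) came from 1 library, KO testis replicate 1, which also held 10.6 RPM of Olfr1033 and 12.6 RPM of H2-M10.2, the closest genes to Meg3 by likeness. Olfr1033 encodes an olfactory receptor.

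Snrpn (chr7:59982495-60140219, minus strand) encodes SmN, a core protein of the spliceosome that replaces SmB in neurons, and is read from the paternal copy. It was the only member over 3 reads in all 13 libraries. WT testis held 3.90 and 2.98 RPM, Het testis 5.85 and KO testis 5.69, 8.16 and 7.16. Spermatids held 2.45 and 3.78 in WT, 3.20 and 2.31 in Het and 2.20, 1.05 and 1.42 in KO. As for Kcnq1ot1, every Het and KO testis was above both WT testes and every KO spermatid library below all WT and Het ones. Over 16942 genes tested in both cell types, 1.3% had both orders. The differences were 0.85 in testis (SE 0.69, adjusted p = 0.467), -0.69 in spermatids (SE 0.44, adjusted p = 0.382), and -1.66 for KO spermatids against KO testis (SE 0.43, adjusted p = 0.0641). With centred or quantile-normalized libraries the testis value became -0.10 or -0.07, so its direction rested on the scaling. Snrpn shares 27.3% of its exonic bases with the readthrough gene Gm38393 and a smaller part with Snurf, which is read in the same transcript, so its reads are uncertain there. Of 7 listed Sm proteins, none passed for KO against WT, where 0.0% of all genes did. In WT spermatids against WT testis 1 of the 7 was higher, against 9.09% of all genes. This was Snrpf, a subunit of the Sm ring, by 1.71 (SE 0.32, limma adjusted p = 0.00591).

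Peg3, a zinc finger protein, Ndn (necdin), a protein of the MAGE family known from neurons, and Mest, a protein of the hydrolase fold, are all read from the paternal copy. Peg3 lies at chr7:6703892-6730431 (minus strand), Ndn at chr7:62346569-62350262 (plus strand) and Mest at chr6:30723547-30748465 (plus strand). Peg3 was at 3.85 and 1.65 RPM in WT testis, 27.9 in Het and 1.22, 15.5 and 27.2 in KO. In spermatids it was at 0.234 and 1.91 in WT, 6.73 and 4.53 in Het and 0.0956, 5.74 and 10.9 in KO. The low KO value in each cell type was that of replicate 1. Ndn was at 0.542 and 0.824 RPM in WT testis, 6.33 in Het and 1.08, 6.59 and 8.80 in KO. In spermatids it was at 0 in both WT libraries, 1.93 and 3.33 in Het and 0.765, 6.39 and 8.80 in KO. Ndn was the 1 member of 7 that was higher in every KO than in every WT spermatid library, an order that 16.6% of genes had. Mest was at 0.271 and 0.127 RPM in WT testis, 0.960 in Het and 0.814, 2.20 and 8.99 in KO. In spermatids it was at 0 and 0.294 in WT, 2.00 and 0.739 in Het and 0, 0.820 and 7.59 in KO. The reads of Mest are uncertain where Copg2, on the other strand, overlaps 23.1% of its exonic bases; Copg2 was at 13.7 to 81.7 RPM.

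The library sets were drawn from all genes of these libraries, so the order of the members between them is a description. Every set 2 testis was above every set 1 testis for Peg3, Ndn, Mest and Snrpn, 4 of the 8 members tested, which is the share of all genes with that order (50.2%). In spermatids it held for Peg3, Ndn and Mest, 3 of the 7 tested, against 25.6% of genes. Their KO-minus-WT differences did not pass: in testis 1.5 for Peg3 (SE 1.20, adjusted p = 0.460), 1.68 for Ndn (SE 0.88, adjusted p = 0.300) and 1.69 for Mest (SE 0.81, adjusted p = 0.265). In spermatids they were 1.23 for Peg3 (SE 0.88, adjusted p = 0.427), 2.33 for Ndn (SE 0.68, adjusted p = 0.137) and 1.14 for Mest (SE 0.78, adjusted p = 0.411). Without KO replicate 1 all 3 passed in both cell types, Ndn for example at 3.09 in spermatids (adjusted p = 0.00021), but so did 65.2% of all genes in testis and 30.8% in spermatids, and the comparison is then one of set 2 KO with set 1 WT libraries. In testis, KO replicate 1 differed from the WT mean within set 1 by -0.69 for Peg3, 0.31 for Ndn and 0.60 for Mest, and within set 2 the KO libraries differed from Het by -0.42, 0.23 and 1.53. With the library set as a covariate the testis difference of Peg3 therefore turned to -0.69. Within set 1, KO replicate 1 differed from the WT mean in spermatids by -0.79 for Peg3, 0.82 for Ndn and -0.19 for Mest, and within set 2 the KO libraries differed from Het by 0.46, 1.26 and 0.79. The summed RPM of the 3 genes was 2.60 to 4.66 in set 1 testes against 24.2 to 45.0 in set 2, and 0.234 to 2.21 against 8.59 to 27.3 in spermatids. Sertoli, stromal and Leydig marker sums were also higher in every set 2 library than in every set 1 library of the same cell type. The peritubular, endothelial and macrophage sums had that order in testis only. Single markers did not all follow the sums. The Leydig marker Insl3 was highest among testes in KO replicate 1 of set 1 (88.7 RPM, against 45.0 to 77.4 in set 2). In that library the stromal sum was 209 against 13.8 and 12.7 in WT, but the 3 genes summed to 3.12, between the WT values. In spermatids the peritubular sum, carried mostly by Actg2, was lower in set 2 (61.3 to 76.9 RPM against 110 to 142). Of its 6 markers only Actg2 had that order. Acta2, Myh11, Tagln and Des were higher in every set 2 than in every set 1 spermatid library, and Cnn1 overlapped. Acta2, for example, was at 3.33 to 8.38 RPM in set 2 spermatids against 0 to 1.18 in set 1. The endothelial and macrophage sums overlapped in spermatids. In sorted spermatids the 8 Leydig markers summed to 0.294 to 1.48 RPM in set 1 against 23.2 to 76.2 in set 2, and the 7 stromal markers to the levels given above. Whether RNA of those cells carried the 3 genes into the spermatid libraries was not tested.

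**Figure D2:**
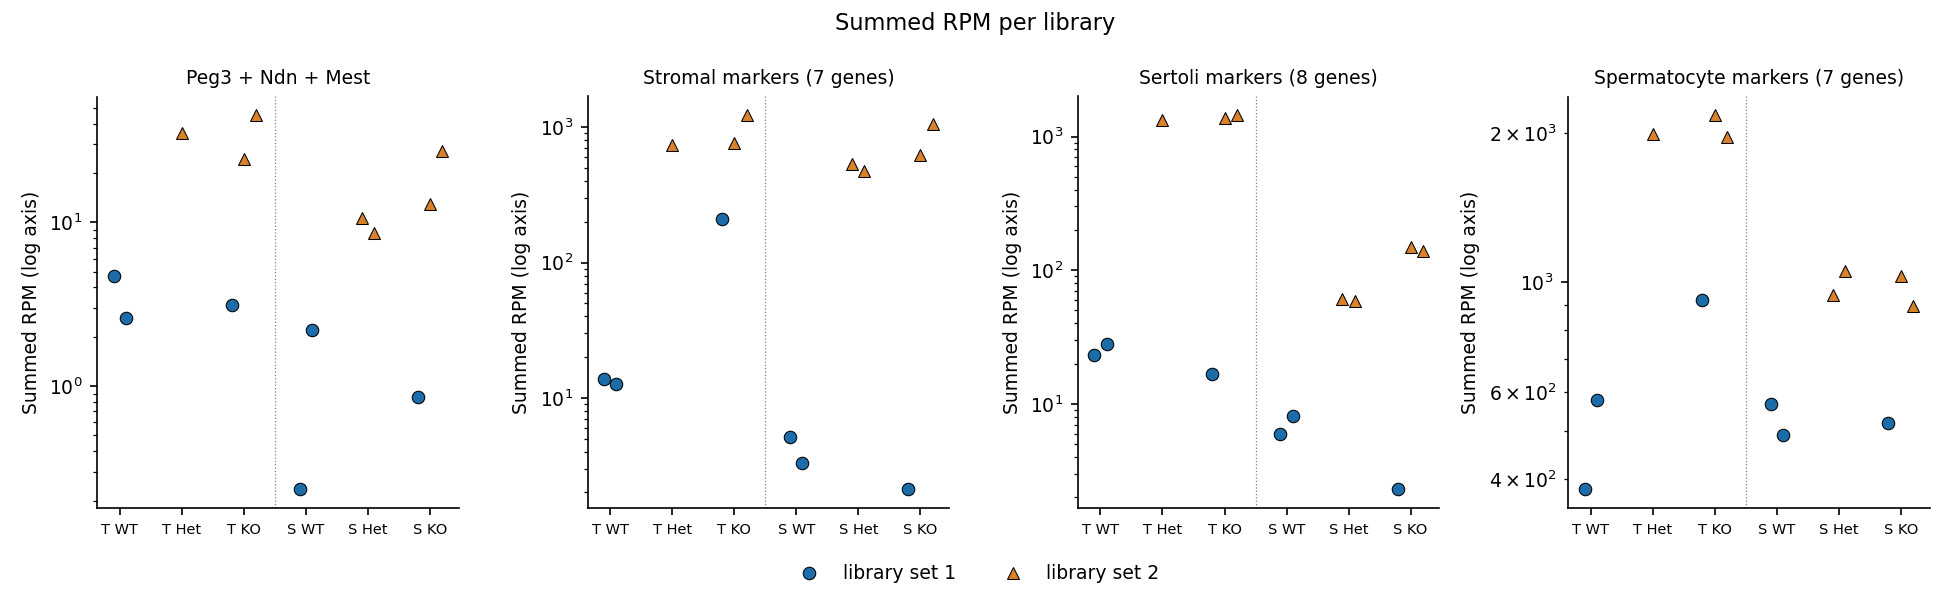
Summed RPM on log axes of Peg3, Ndn and Mest (first panel) and of the stromal, Sertoli and spermatocyte marker lists, for each testis (T) and round spermatid (S) library by genotype; circles and triangles are library sets 1 and 2. The 3 imprinted genes summed to 0.234 to 4.66 RPM in set 1 and to 8.59 to 45.0 RPM in set 2, and the stromal markers to 2.1 to 209 RPM and 478 to 1228 RPM.

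By likeness, the closest genes to Peg3 were Zmym1 (0.368), Idh2 (0.380) and Heatr3 (0.387), and to Ndn Pygl (0.389), Armcx2 (0.404) and Ckb (0.416). Those of Mest were Cavin3 (0.433), Ccdc102a (0.501) and Igf1 (0.505). Igf1, the growth factor related to Igf2, was at 3.93 to 14.6 RPM in set 1 and 14.4 to 33.9 RPM in set 2 testes. For Snrpn the closest were Exosc6 (0.255), Tmem80 (0.265) and Kctd20 (0.268), for Igf2 Ethe1 (0.452), Snx12 (0.484) and Plcd3 (0.494), and for Cdkn1c Slc6a13 (0.391), H2al1a (0.392) and Faiml (0.400). Those of H19 were Zfp300 (0.143), Mansc4 (0.155) and Pet117 (0.199), and of Dlk1 Bak1 (0.350), Ccl24 (0.362) and Pycr1 (0.363). For Meg3 the third after the pair named above was Apol7d (0.418). Genes near 0 in most libraries differ little by this measure.

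**Figure D3:**
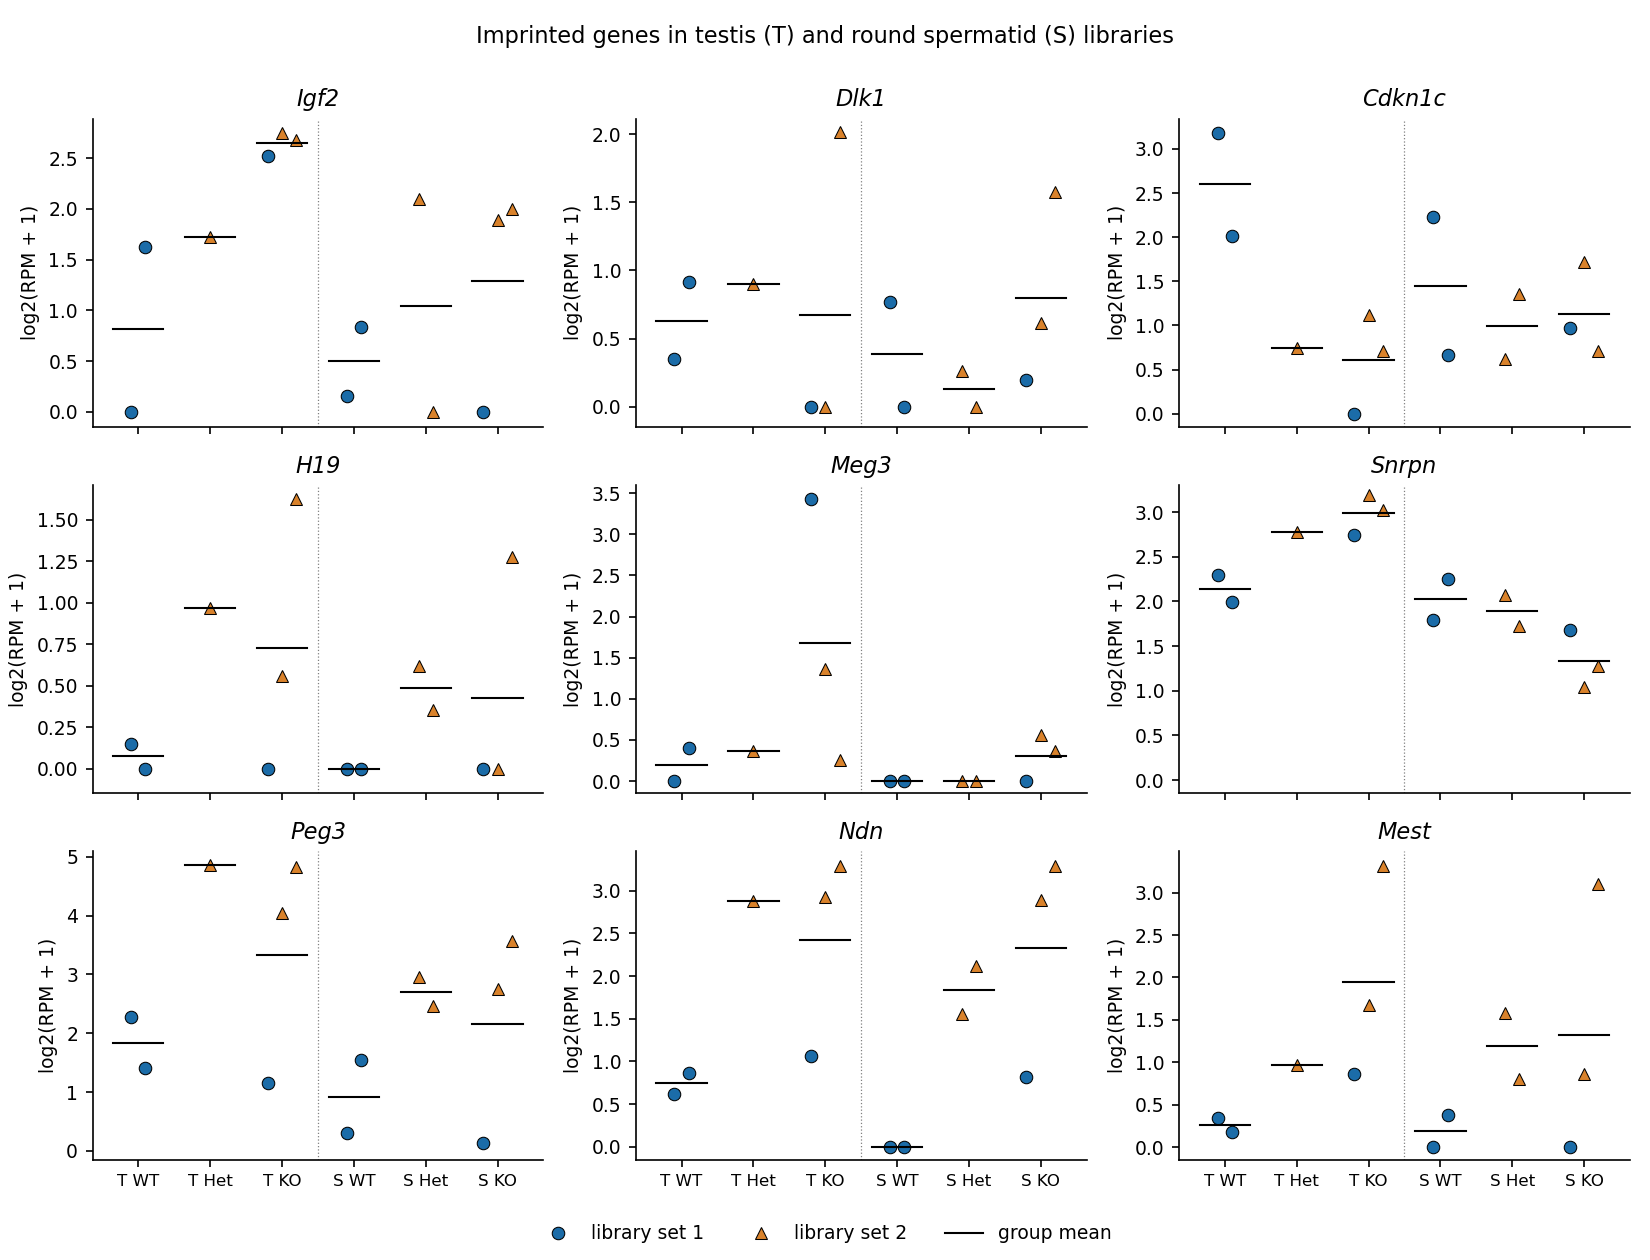
Levels of the 9 other members as log2(RPM + 1) in each testis (T) and round spermatid (S) library by genotype, with a separate vertical scale for each gene; circles and triangles are library sets 1 and 2, and bars are group means. Peg3, Ndn and Mest were higher in every set 2 than in every set 1 library of a cell type. That order held for 50.2% of all genes in testis and 25.6% in spermatids. Cdkn1c had its highest group mean in WT testis (8.08 and 3.04 RPM).

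Per kilobase of exon, which allows genes to be compared, Snrpn was the highest member in each KO testis (2.64, 3.78 and 3.31 RPM per kb) and in the Het testis (2.71), and Cdkn1c in each WT testis (3.96 and 1.49). Kcnq1ot1 had the lowest group mean of the 10 in WT testis at 0.00238 RPM per kb, and its mean was 0.314 in Het and 0.294 in KO testis, with its reads spread over 93092 bases. In KO spermatids the order differed between libraries. Ndn was at 0.207, 1.73 and 2.38 RPM per kb, Snrpn at 1.02, 0.488 and 0.658, and Mest at 0, 0.208 and 1.93, so that Snrpn led in KO replicate 1 and Ndn in the other two. In WT spermatids Cdkn1c (1.80 and 0.289) led in replicate 1 and Snrpn (1.14 and 1.75) in replicate 2, with Ndn at 0 in both.

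**Figure D4:**
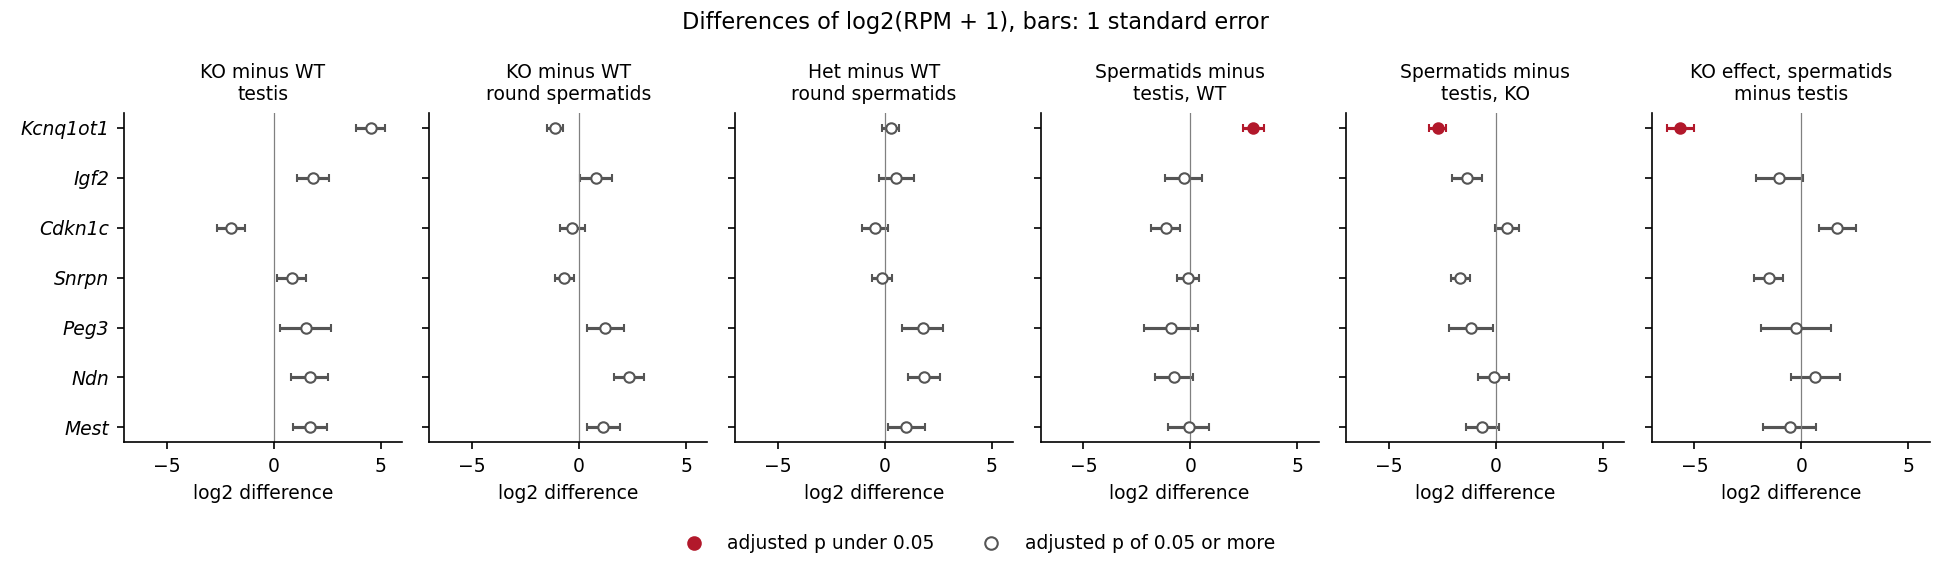
Differences of log2(RPM + 1) with 1 standard error for the 7 members over 3 reads in at least 8 libraries, in the 6 comparisons; filled red points had a limma adjusted p under 0.05. Kcnq1ot1 alone passed, at 2.95 and -2.72 for spermatids against testis in WT and KO and at -5.67 for the difference between the KO effects.

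Other genes of the imprinted clusters passed the test between cell types and not between genotypes within a cell type. Of the 31 listed cluster neighbours, 18 were tested for WT spermatids against WT testis, of which 3 were higher and 1 lower, against 9.09% and 2.39% of all genes. Beside Kcnq1 these were Ube3a (2.65, SE 0.52, adjusted p = 0.00815), the ubiquitin ligase of the Snrpn cluster, Atp10a (3.81, SE 0.85, adjusted p = 0.0154), a lipid flippase gene beside it, and Mrpl23 (-2.69, SE 0.68, adjusted p = 0.0268), a mitochondrial ribosome protein gene near H19. Ube3a was at 7.97 and 18.2 RPM in WT testis against 57.4 to 132 in the other testes and 51.4 to 139 in spermatids. Ube3a, Atp10a and Kcnq1ot1 were each lower in both WT testes than in every other testis, an order that 27.5% of 18570 genes had. For KO against WT none of the 17 neighbours tested in testis and none of the 15 in spermatids passed, where 0.0% of all genes did.

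Of 23 other imprinted genes, 20 were tested between cell types. In WT, 1 of the 20 was higher in spermatids, against 9.09% of all genes: Airn, the antisense RNA that silences Igf2r, was higher in WT spermatids than in WT testis by 2.37 (SE 0.53, adjusted p = 0.0151). Grb10, an adaptor that dampens insulin signalling, was lower in KO spermatids than in KO testis (-2.61, SE 0.56, adjusted p = 0.0385) and in the interaction (-4.16, SE 0.88, adjusted p = 0.0405). The pair is named because it passed, but with centred libraries no gene passed in the interaction. The most abundant of the list, Commd1, H13, Gnas and Trappc9, passed in no comparison; Gnas differed by 4.08 between KO and WT testis (SE 0.75, adjusted p = 0.0710). Airn, like Kcnq1ot1 a long unspliced antisense RNA, was at 5.13 and 10.4 RPM in WT testis against 12.2 to 27.0 in the other testes, but at 23.9 to 38.2 RPM in KO spermatids, within the 22.4 to 44.6 of WT and Het. Of 16 genes that set or protect imprints, 15 were tested, and 2 of the 15 were higher in WT spermatids than in WT testis, against 9.09% of all genes. Zfp57, which protects imprints after fertilisation, was higher in WT spermatids than in WT testis by 1.95 (SE 0.39, adjusted p = 0.00917), at 47.3 and 50.7 RPM against 8.68 and 16.2. Kdm1b passed there as well (2.09, SE 0.60, adjusted p = 0.0455). Trim28, Uhrf1 and Dnmt1, the cofactor of ZFP57 and the pair that copies methylation, passed in no comparison. None of the list passed for KO against WT, where 0.0% of all genes did. Its median differences were 1.73 in testis, against 0.63 over all genes, and -0.02 in spermatids, against 0.03.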

How the data were processed

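Gene levels were measured in 13 Smart-seq2 libraries of testis and sorted round spermatids. The authors deposited 1 table of log2 RPM values (read counts scaled to a common total) for 30479 genes; per the submitters' processing notes, the tools included HISAT2 2.1.0 and Trim Galore 0.6.6 with build mm10, and no source used here names the counting program or strand setting. An absent read was stored as the log2 value of 0.9 read, and the others came out as whole reads (within 0.01 read) for 99.704% to 99.995% of values per library; 60.7% to 63.5% of read numbers were even. Replicate libraries differed beyond counting noise (chi-square per degree of freedom of at least 10.1). Values were turned to RPM, with 0 for an absent read, and tested with limma 3.58.1 (R 4.3.3) on log2(RPM + 1), with trend, within each cell type for genotype contrasts and over all 13 libraries for contrasts between cell types. The script was tested on simulated data. Differences are given for members over 3 reads in at least 8 libraries, a limit set after seeing the values. Alternatives were voom on recovered reads, another pseudocount, 2 filters, 2 scalings, library weights, the library set as a covariate, a replicate block, and leaving out each library. Of each further gene list, up to 4 of the most abundant members could be named, and cluster neighbours freely; Insr, Airn, Grb10 and, in its list, Kdm1b were named after their values were seen, because they passed; the 3 genes most alike each member exclude predicted genes and pseudogenes. The members and the lists were chosen with earlier results of these data known. GENCODE M21 gave gene models and RefSeq the promoters.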

Additional observations from a re-analysis of the deposited data

Results flagged for a closer look

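The KO-minus-WT difference of Kcnq1ot1 was lower in round spermatids than in testis, with an interaction of -5.67 (limma adjusted p = 0.0168), and every KO spermatid library was below WT while every KO testis was above WT. The same test gave -2.65 for Kcnq1 (limma adjusted p = 0.0296), the gene on the other strand at that place. With centred libraries no gene passed in the interaction, so neither call held there. No group had the number of libraries needed to test for a single library far from the others.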

How the results depend on the processing

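Counts of genes that passed depended on the settings in all 6 comparisons, and the cause was not tested. For KO against WT testis the count was 0, but 12535 with library quality weights, 6992 with the library set as a covariate, 152 with a replicate block and 4153 in a fit of all 13 libraries; leaving out 1 library gave 0 to 11976, the latter without KO replicate 1. For KO against WT spermatids it was 0, but 4 with centred libraries, 5706 with weights and 89 with the set, and 0 to 5514 with 1 library left out, again highest without KO replicate 1. For Het against WT spermatids it was 0, but 440 (centred), 837 (quantile), 4815 (weights) and 1589 (replicate block), and 0 to 4739 with 1 library left out. For WT spermatids against WT testis it was 2305, but 1182 (centred), 6221 (weights) and 4915 (set), and 670 to 1161 with 1 library left out. For KO spermatids against KO testis it was 474, but 254 (pseudocount of 0.1 RPM), 728 (mean of at least 5 RPM), 932 (centred), 749 (quantile), 10322 (weights), 4201 (set) and 987 (replicate block), and 18 to 8039 with 1 library left out; it was 7339 without both libraries of KO replicate 1. For the interaction it was 428, but 849 (mean of at least 5 RPM), 0 (centred), 1 (quantile), 6946 (weights) and 2773 (set), and 0 to 6526 with libraries left out, the last without both libraries of KO replicate 1. Voom called 0, 0, 0, 2520, 495 and 334 genes in the same order. Higher calls were 1825 of 2305 for WT cell types, and 727 of 1182 when centred; for KO cell types they were 188 of 474, and 738 of 932 when centred. The median over all genes in KO against WT testis was 0.63, and -0.31 when centred.

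Among members, differences changed sign as follows, none of them called in the analysis reported. With centred or quantile-normalized libraries the sign changed for Snrpn in KO against WT testis (-0.10 and -0.072), Ndn in KO spermatids against testis (0.38 and 0.25), Peg3 in the interaction (0.56 and 0.31), Mest in the interaction (0.27, centred) and Kcnq1ot1 in Het against WT spermatids (-0.011, centred). With the set as a covariate it changed for Peg3 in KO against WT testis (-0.69), for Igf2 (-0.50), Peg3 (-0.79) and Mest (-0.19) in KO against WT spermatids, and for Kcnq1ot1 (-0.011), Igf2 (-1.39), Peg3 (-1.25), Snrpn (0.40), Ndn (-0.44) and Mest (-0.98) in Het against WT spermatids. Cdkn1c changed in KO against WT spermatids with weights (0.086), and Igf2 in WT spermatids against testis with voom (0.59). With 1 library left out, ranges crossed 0 for Cdkn1c in KO (-1.09 to 0.46) and Het against WT spermatids (-1.24 to 0.32), and in the latter for Igf2 (-0.50 to 1.59) and Snrpn (-0.36 to 0.11). In WT spermatids against testis they did for Igf2 (-1.13 to 0.50), Snrpn (-0.36 to 0.11) and Mest (-0.26 to 0.11), in KO for Ndn (-0.78 to 0.66) and Mest (-1.52 to 0.055), and in the interaction for Peg3 (-1.36 to 0.75), Ndn (-0.030 to 1.41) and Mest (-1.45 to 0.13). Of all alternatives that left no library out, 327 member results kept direction and side of the threshold, 19 newly passed and 2 no longer passed.

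Same-numbered testis and spermatid libraries were not treated as pairs: their deviations correlated at -0.02 in WT and at 0.50, 0.28 and 0.40 in KO, and KO testis 2 correlated better with KO spermatid 3 (0.34). The replicate block gave 152, 0, 1589, 2720, 987 and 590 genes in the 6 comparisons. H19, Meg3 and Dlk1 were at or under 3 reads in 8, 8 and 6 libraries. Whether depth or a low level of their RNA lay behind this was not tested.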
